A study of Mus musculus with 12 samples.

Results

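The heavy chain variable (Ighv) segments are the mouse genes that encode most of the antigen-binding part of the immunoglobulin heavy chain. They were taken as all genes of type IG_V_gene in the GENCODE vM21 annotation whose symbol starts with Ighv, without Ighv11-2 and Ighv12-3, which gave 111 of the 55487 genes in the deposited table. RNA had been sequenced from B cells purified from mouse spleens, which the labels call naive, in 4 groups of 3 libraries. The groups were Fcmr KO cells at 6 h, wild-type (WT) cells at 6 h, Fcmr KO cells at 1 h and WT cells at 1 h. All cells were cultured with 10 µg/mL of F(ab')2 anti-IgM, so no group was without stimulation. The antibody fragment crosslinks IgM on the cell surface, and Fcmr encodes the Fc receptor for IgM. The labels describe biological replicates without naming animals, and strain, age and allele are not given in the sources used here. The p-values therefore measure the spread between these libraries.

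Each developing B cell joins a V, a D and a J segment on a heavy chain allele, which places the V promoter near the intronic enhancer and turns on transcription of that V segment. A mature B cell thus expresses mainly a single V segment, spliced to the constant region of IgM (Ighm) or IgD (Ighd), and the V transcripts of a sample show which receptors its cells carry. Expanded clones and antibody-secreting cells, which hold much more heavy chain RNA per cell, weigh more in such a profile than resting cells do.

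The coding sequences of 3 pairs of segments are shown because the results turn on telling close relatives apart. They come from the GENCODE vM21 transcripts (GRCm38, which is mm10), and all lie on the minus strand of chromosome 12. Capitals mark the bases that differ within a pair. Ighv9-4, at chr12:114299961-114300389, varied most between replicates, and its relative Ighv9-3, at chr12:114140692-114141122, was among the most abundant segments. Over the last 300 coding bases they differ at 24 positions, an identity of 92.0%.
Ighv9-4: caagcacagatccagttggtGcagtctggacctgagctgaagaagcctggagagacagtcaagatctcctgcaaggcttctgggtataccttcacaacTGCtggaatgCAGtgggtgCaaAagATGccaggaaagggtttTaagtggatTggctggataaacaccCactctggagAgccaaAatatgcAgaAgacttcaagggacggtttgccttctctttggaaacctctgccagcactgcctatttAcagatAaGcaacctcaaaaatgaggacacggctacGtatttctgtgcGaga
Ighv9-3: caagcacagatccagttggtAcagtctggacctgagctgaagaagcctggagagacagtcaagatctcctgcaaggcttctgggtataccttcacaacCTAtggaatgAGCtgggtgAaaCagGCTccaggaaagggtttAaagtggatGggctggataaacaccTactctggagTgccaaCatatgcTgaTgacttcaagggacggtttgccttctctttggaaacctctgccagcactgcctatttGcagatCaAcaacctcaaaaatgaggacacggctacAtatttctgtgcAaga

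Ighv5-6, at chr12:113625506-113625956, was the only segment called between the genotypes in the fit to all libraries, and Ighv5-4, at chr12:113597446-113597977, is a relative that was high in a single KO replicate. Their last 300 coding bases differ at 14 positions, an identity of 95.3%.
Ighv5-6: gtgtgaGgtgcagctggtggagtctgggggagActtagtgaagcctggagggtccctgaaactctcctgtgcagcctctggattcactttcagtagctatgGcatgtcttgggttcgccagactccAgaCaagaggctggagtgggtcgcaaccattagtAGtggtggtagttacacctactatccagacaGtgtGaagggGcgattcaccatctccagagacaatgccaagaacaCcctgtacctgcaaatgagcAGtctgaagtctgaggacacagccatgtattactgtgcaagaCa
Ighv5-4: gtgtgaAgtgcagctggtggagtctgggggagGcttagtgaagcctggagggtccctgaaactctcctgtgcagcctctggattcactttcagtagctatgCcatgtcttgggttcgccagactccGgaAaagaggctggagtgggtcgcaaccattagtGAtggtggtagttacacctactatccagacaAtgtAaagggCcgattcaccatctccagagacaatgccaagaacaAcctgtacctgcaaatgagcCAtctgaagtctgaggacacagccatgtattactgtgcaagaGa

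Ighv1-71, at chr12:115742205-115742647, and Ighv1-62-2, at chr12:115446409-115446869, are near-identical copies. Their whole coding sequences differ only by G8T, counted from 1 at the first coding base with the base of Ighv1-71 first. The first 60 coding bases show it.
Ighv1-71: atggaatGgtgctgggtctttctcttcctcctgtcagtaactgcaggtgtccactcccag
Ighv1-62-2: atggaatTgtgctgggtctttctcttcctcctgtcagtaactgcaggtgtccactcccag

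All 111 segments had a coding sequence in the annotation, with a median length of 351 bases. The identity to the nearest other segment had a median of 94.9% and ranged from 72.6% to 99.7%. Reads were 150 bases long, and in 104 segments every stretch of 150 bases was unique among the Ighv transcripts. Unique stretches made up only 3.81% of Ighv1-71 and 11.8% of Ighv1-62-2, so the split of reads between these copies is uncertain. The most frequent end of the coding sequence, tgtgcaaga, was shared by 46 segments and holds the conserved cysteine codon and the first bases of the CDR3 loop.

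Libraries held 19260751 to 24058818 fragments, of which 22412 to 92390 came from the Ighv segments. A level is given as FPKM, fragments scaled by transcript length and library size, and 3 fragments on a segment of median length, 353 bp, are 0.353 to 0.441 FPKM. Fcmr stood at 42.6 to 50.1 FPKM in KO libraries and 352 to 401 FPKM in WT libraries. Of the B cell markers, Ms4a1 stood at 142 to 157 FPKM at 6 h and 323 to 381 FPKM at 1 h, and Cd79a at 198 to 236 FPKM at 6 h and 769.8 to 849 FPKM at 1 h. The 6 T cell markers summed to 10.7 to 15.5 FPKM at 6 h and 15.7 to 24.7 FPKM at 1 h. The 12 plasma cell markers, Jchain among them, summed to 821 to 1298 FPKM at 6 h and 1348 to 2103 FPKM at 1 h. Jchain and Irf4 were the largest parts, with Irf4 at 305 to 327 FPKM at 6 h and 495 to 579 FPKM at 1 h. The others ranged down to Tnfrsf17, at 0.153 to 0.502 FPKM at 6 h. Of the 12, 0 were absent from all libraries, which shows only that each was detected in cells labelled naive. The 5 neutrophil markers were uneven, at 13.7 to 60.5 FPKM in KO libraries and 13.5 to 786 FPKM in WT libraries. So were the 4 erythroid markers, which summed to 254 to 1057 FPKM in KO libraries and 252 to 1626 FPKM in WT libraries.

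Most of the locus was transcribed. The filter for testing, a mean level of 1 FPKM or more, was passed by 92 segments. A further 13 were detected below it, and 6 were at 0 in every library. The level was 100 FPKM or more in 16 segments, from 10 to 100 FPKM in 60 and from 1 to 10 FPKM in 16. Of 70 annotated Ighv pseudogenes, 5 reached 1 FPKM, the highest of them 2.71 FPKM. The segments spread over 2422 kb, from Ighv5-2 next to the D segments, at a mean of 5.19 FPKM, to Ighv1-85 at the far end, at a mean of 30.4 FPKM.

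The 10 most abundant segments were Ighv1-26, Ighv9-4, Ighv1-53, Ighv3-6, Ighv9-3, Ighv1-9, Ighv6-3, Ighv1-18, Ighv5-4 and Ighv1-81, which together held 43.6% of the summed mean level. Ighv1-26 had 243, 184 and 293 FPKM in KO libraries and 322, 629.8 and 145 FPKM in WT libraries at 6 h. At 1 h it had 438, 332 and 458 FPKM in KO libraries and 529, 1064 and 263 FPKM in WT libraries. The second WT replicate was the highest at both times, and the genotypes overlapped. Ighv1-53 had 333, 194 and 336 FPKM in KO libraries and 145, 452 and 56.0 FPKM in WT libraries at 6 h. Its values at 1 h were 496, 322 and 464 FPKM in KO libraries and 246, 642 and 114 FPKM in WT libraries. The second WT replicate was again the highest and the third WT replicate the lowest. Ighv3-6 had 144, 301 and 251 FPKM in KO libraries and 102, 171 and 296 FPKM in WT libraries at 6 h. The levels at 1 h were 274, 574 and 441 FPKM in KO libraries and 235, 316 and 504 FPKM in WT libraries. For this segment the second KO and the third WT replicates were highest, and the genotypes overlapped.

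Across their 12 libraries, Ighv1-9 ranged over 62.3 to 489 FPKM, Ighv6-3 over 116 to 558 FPKM, Ighv1-18 over 46.6 to 309.8 FPKM and Ighv1-81 over 48.5 to 284 FPKM. The heatmap of the most abundant segments shows that each replicate had its own set of high segments and kept it at both times.

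**Figure D1:**
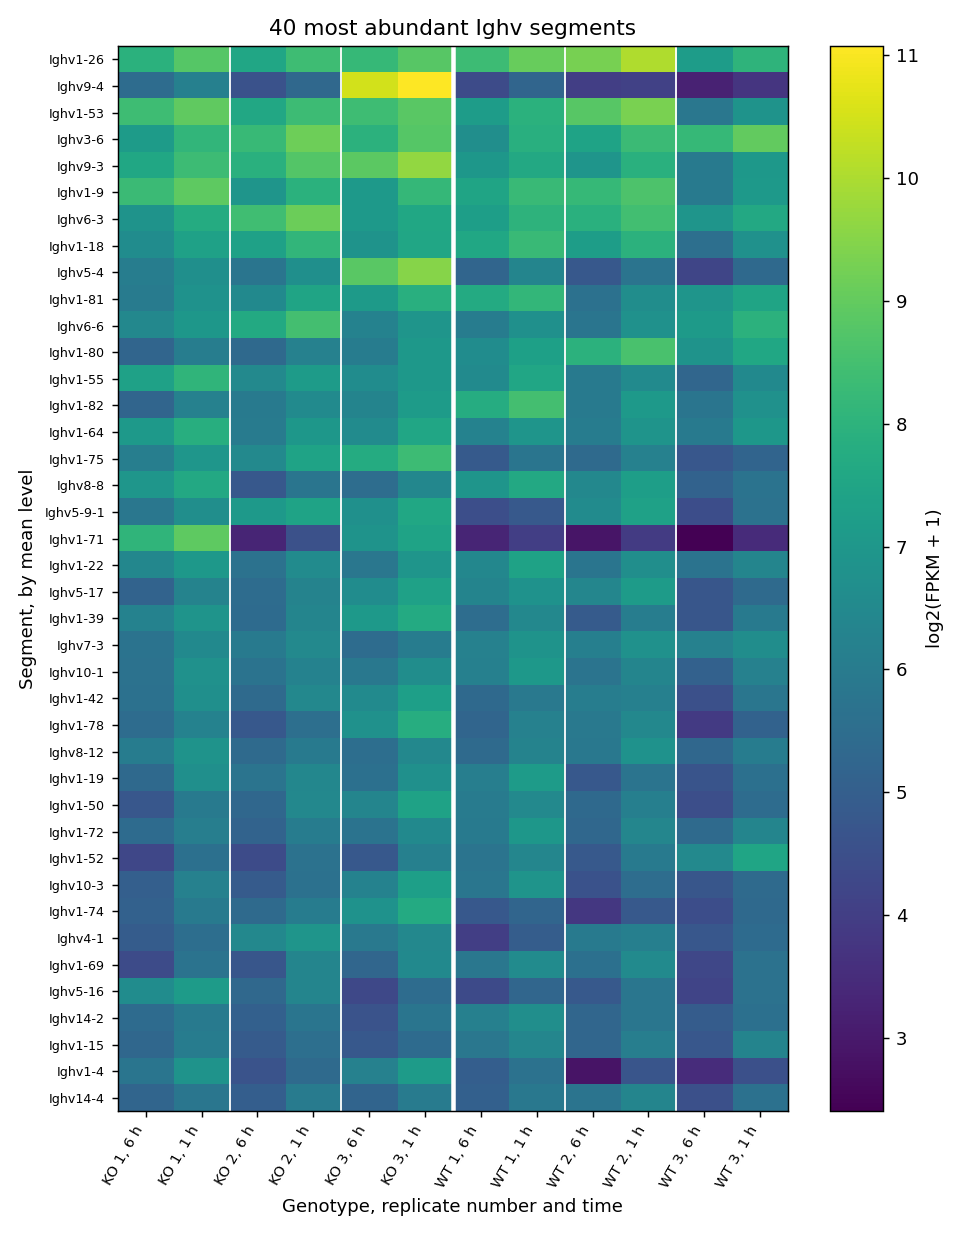
Levels of the 40 Ighv segments with the highest mean, as log2(FPKM + 1), with segments in rows by mean level and libraries in columns by genotype, replicate number and time. The pair of columns of each replicate looks alike, and Ighv9-4 stands out in KO replicate 3 at 1448 FPKM at 6 h and 2160 FPKM at 1 h.

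Subfamilies, the first number in a segment's name, group segments of similar sequence. The Ighv1 subfamily, with 53 of the 111 segments, held 60.4, 46.7 and 43.9% of the summed Ighv level in KO libraries and 64.8, 63.6 and 52.0% in WT libraries at 6 h. At 1 h it held 60.8, 49.6 and 45.4% in KO libraries and 64.5, 62.5 and 54.5% in WT libraries. The shares of the genotypes overlapped at both times. The 4 Ighv9 segments held 5.93, 6.92 and 28.8% in KO libraries and 4.26, 3.91 and 3.67% in WT libraries at 6 h. At 1 h they held 5.96, 7.24 and 26.8% in KO libraries and 3.91, 4.43 and 3.95% in WT libraries. All KO shares lay above all WT shares, and the third KO replicate was far above the rest. The 10 Ighv5 segments held 7.41, 8.25 and 11.3% in KO libraries and 4.96, 6.59 and 4.67% in WT libraries at 6 h. At 1 h they held 6.98, 7.55 and 11.4% in KO libraries and 4.81, 7.14 and 5.38% in WT libraries. The Ighv5 shares did not overlap at 6 h and overlapped at 1 h. Other subfamilies went the opposite way. The 4 Ighv7 segments held 1.473, 1.544 and 0.703% in KO libraries and 1.994, 1.765 and 2.646% in WT libraries at 1 h. The 4 Ighv14 segments held 2.568, 2.284 and 1.496% in KO libraries and 3.205, 2.649 and 3.202% in WT libraries at 1 h. For both, all KO shares lay below all WT shares at 1 h, and the genotypes overlapped at 6 h. Shares of the remaining subfamilies are not given here. These shares are descriptions with no test.

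The locus was also divided by order into the 55 segments nearer to the D segments and the 56 farther from them. The farther segments held 55.4, 44.8 and 41.7% of the summed level in KO libraries and 62.6, 58.3 and 49.9% in WT libraries at 6 h. At 1 h they held 56.0, 46.8 and 42.5% in KO libraries and 62.1, 58.2 and 51.5% in WT libraries. The genotypes overlapped at both times, since the first KO replicate lay above the third WT replicate.

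Replicates differed far more in their V segments than in their other genes. The SD between replicate numbers within a genotype, taken on log2(FPKM + 1) averaged over the times, had a median of 0.616 over the 92 tested segments, against 0.0715 over all 11841 tested genes. It lay above 0.326, the 95th percentile of all tested genes, in 85.9% of the segments, and 5% of all tested genes lie there by construction. The ratio of the highest to the lowest replicate had a median of 4.28 at 6 h and 3.80 at 1 h.

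**Figure D2:**
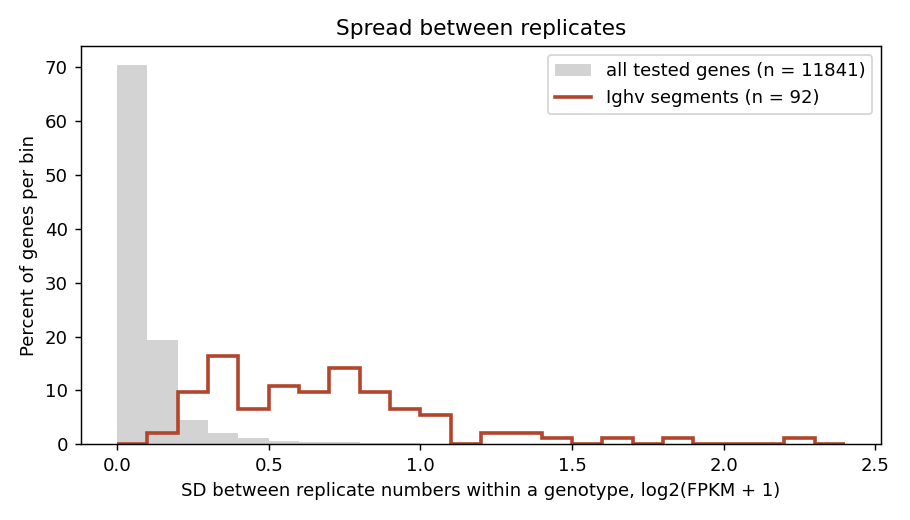
Distribution of the SD between replicate numbers within a genotype, on log2(FPKM + 1) on the horizontal axis and as percent of genes per bin on the vertical axis, for the 92 tested Ighv segments (line) and all 11841 tested genes (filled). The segments lie to the right of the bulk of the genes, with medians of 0.616 and 0.0715.

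The profile of a replicate persisted between the times. The 6 h and 1 h libraries of a replicate had correlations of 0.974 to 0.984 (Pearson r over the 92 segments on log2 levels, 6 pairs), against 0.759 to 0.894 for different numbers within a group (12 pairs) and 0.682 to 0.831 between KO and WT libraries of the same time (18 pairs). These values are across segments, which share libraries and are not independent. The same replicate was the highest at both times for 77 of 92 segments. It was the third KO replicate for 23 of them and the third WT replicate for 3, and the other replicates had 11 to 14 each. This count was not made over all tested genes.

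The largest differences between replicates lay in single segments. Ighv9-4 had 43.5, 23.2 and 1448 FPKM in KO libraries and 19.8, 15.3 and 8.42 FPKM in WT libraries at 6 h. At 1 h it had 72.4, 39.5 and 2160.0 FPKM in KO libraries and 36.7, 16.1 and 12.2 FPKM in WT libraries. The third KO replicate exceeded the next replicate 33.3-fold at 6 h and 29.8-fold at 1 h, and Ighv9-4 made up 21.4% and 19.2% of its summed Ighv level. Its relative Ighv9-3, 24 bases apart over the stretch shown, was also highest in that replicate. Ighv9-3 had 191, 239 and 479 FPKM in KO libraries and 128, 122 and 61.7 FPKM in WT libraries at 6 h. Its values at 1 h were 329, 435 and 810.2 FPKM in KO libraries and 199, 242 and 129 FPKM in WT libraries. Within each time every KO library lay above every WT library for both segments, and neither passed the genotype test. Adjusted p from limma was 0.725 at 6 h and 0.506 at 1 h for Ighv9-4, and 0.347 and 0.224 for Ighv9-3.

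Ighv5-4 was also led by the third KO replicate, with 66.1, 53.1 and 460.5 FPKM in KO libraries and 36.2, 27.0 and 17.7 FPKM in WT libraries at 6 h. The levels at 1 h were 105, 104 and 729 FPKM in KO libraries and 79.7, 52.5 and 40.7 FPKM in WT libraries. Ighv1-37 was led by the same replicate, at 15.1 FPKM at 6 h and 62.3 FPKM at 1 h, with 1.07 to 1.93 FPKM and 1.63 to 3.19 FPKM in the others. Other replicates had high segments of their own. Ighv8-4 had 1.18, 33.0 and 0.129 FPKM in KO libraries and 0.276, 0.776 and 0.475 FPKM in WT libraries at 6 h, and only the second KO replicate stood out. Ighv2-6-8 had 43.7, 4.35 and 3.24 FPKM in KO libraries and 0.691, 1.17 and 0.833 FPKM in WT libraries at 6 h, led by the first KO replicate. Ighv1-71 had 267, 8.88 and 115 FPKM in KO libraries and 8.76, 6.45 and 4.29 FPKM in WT libraries at 6 h. KO replicates 1 and 3 were high, and its copy Ighv1-62-2 had 14.5, 15.2 and 15.0 FPKM in KO libraries and 9.08, 9.61 and 4.63 FPKM in WT libraries. Ighv9-4, Ighv1-71, Ighv8-4, Ighv2-6-8, Ighv5-4 and Ighv1-37 had the largest SD between the 6 replicates of both genotypes, 1.44 to 2.64 on log2(FPKM + 1).

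A level at least 4-fold above the next replicate at both times was found in 6 segments. They were Ighv9-4, Ighv5-4, Ighv1-37 and Ighv1-31 in the third KO replicate, Ighv2-6-8 in the first and Ighv8-4 in the second. All 6 led in a KO replicate, which depends on the cut. Ighv1-34 led in the first WT replicate, 4.43-fold above the next at 6 h and 3.41-fold at 1 h, and so missed it. Ighv1-31 and Ighv1-34 were noticed only once their values were known. Segments of the same replicate are not independent, and the count was not made over all tested genes. The third KO replicate also had the least even profile. Its effective number of segments, the exponential of the Shannon entropy of the shares, was 33.3 at 6 h and 36.7 at 1 h. In the other KO libraries it was 46.9 and 47.3 at 6 h and 49.3 and 48.4 at 1 h. WT libraries had 49.6, 38.8 and 47.2 at 6 h and 50.5, 42.3 and 49.7 at 1 h. The summed level of the plasma cell markers was likewise highest in the third KO replicate at 6 h. It was 1044, 1042 and 1298 FPKM in KO libraries and 1099, 1171 and 821 FPKM in WT libraries. Jchain and Irf4 were the largest parts of this sum. Jchain was highest in the third KO replicate, at 707 FPKM. So were Sdc1, Prdm1, Xbp1, Tnfrsf17, Fkbp11, Derl3, Edem1 and Txndc5 of the same list. Irf4 was not, with 313, 308 and 309 FPKM in KO libraries, and neither were Mzb1 and Creld2. The part of these markers in the V profiles was not tested.

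Loss of Fcmr was compared with WT first in the summed level of all 111 segments. At 6 h it was 4265, 4061 and 6769.9 FPKM in KO libraries and 4001, 4503 and 2567 FPKM in WT libraries, a log2 ratio of the means of 0.45. At 1 h it was 7410.5, 7188 and 11278 FPKM in KO libraries and 6762, 7586 and 4779 FPKM in WT libraries, a log2 ratio of 0.44. The genotypes overlapped at both times. The third replicates set much of the ratio, which was 0.17 at 6 h and 0.20 at 1 h without the third KO library of that time, and 0.24 at 6 h and 0.27 at 1 h without the third WT library. In these bulk samples fewer cells with a segment and less RNA per cell cannot be told apart. Ighm, the IgM constant region, followed the same order, with 3306, 2742 and 4729 FPKM in KO libraries and 2469.6, 3449 and 1879 FPKM in WT libraries at 6 h. The summed Ighv level over that of Ighm was 1.40 ± 0.0992 in KO libraries and 1.43 ± 0.167 in WT libraries at 6 h (SD, n = 3 each). At 1 h it was 1.496 ± 0.114 in KO libraries and 1.53 ± 0.133 in WT libraries. Between the genotypes the ratio thus differed by less than its spread. Jchain, which joins IgM and IgA polymers in secreting cells, had 491, 511 and 707 FPKM in KO libraries and 546, 611 and 291 FPKM in WT libraries at 6 h, with the third replicates again at the ends.

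**Figure D3:**
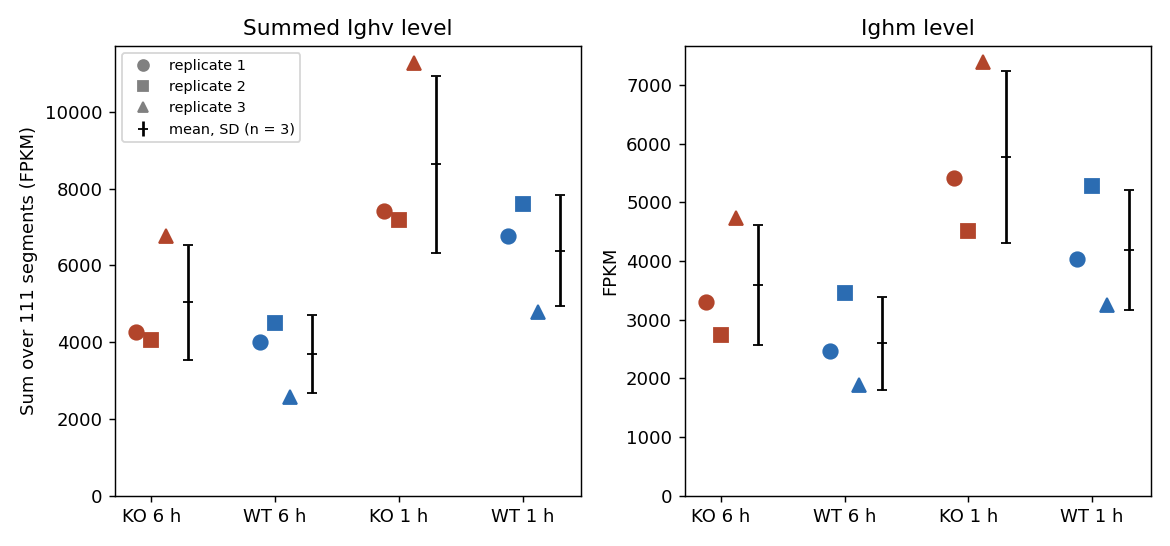
Summed level of the 111 Ighv segments (left) and level of Ighm (right) in FPKM for each library, with symbols for the replicate numbers and the mean ± SD of each group of 3. The third KO replicate is the highest and the third WT replicate the lowest at both times, and each replicate is lower at 6 h than at 1 h.

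Single segments seldom passed the genotype test. Of the 92 tested segments, 1 was called at 6 h, Ighv5-6, which rose in KO cells (limma on log2(FPKM + 1), adjusted p under 0.05 over the table); 0.228% of all tested genes were called. At 1 h 0 segments were called, beside 0.524% of all tested genes, while 19 of 92 had an unadjusted p under 0.05, as did 11.3% of all tested genes. At 6 h an unadjusted p under 0.05 was reached by 20 of 92 segments and by 7.55% of all tested genes. On fragments recovered from the FPKM values, voom called 1 segment at 1 h, again Ighv5-6. The median log2 fold change of the segments, KO over WT, was 0.18 at 6 h and 0.16 at 1 h, with 56 positive and 36 negative at each time, and the median over all genes was 0.0016 and -0.011. The median SE was 0.488 for the segments and 0.078 for all genes.

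Ighv5-6 had 43.1, 42.4 and 52.1 FPKM in KO libraries and 21.6, 18.0 and 17.6 FPKM in WT libraries at 6 h (log2 fold change 1.22, SE 0.157, limma adjusted p = 0.0101). At 1 h it had 64.5, 68.6 and 90.6 FPKM in KO libraries and 34.3, 50.01 and 40.4 FPKM in WT libraries (log2 fold change 0.83, SE 0.157, limma adjusted p = 0.0537). The genotypes did not overlap at either time, and at 1 h the difference missed the threshold. Without the third KO library at 6 h the adjusted p at 6 h was 0.0578, and without the second WT library at 6 h it was 0.0504. Without the second WT library at 1 h the adjusted p at 1 h was 0.0491. As a share of the summed Ighv level it was 1.01, 1.04 and 0.770% in KO libraries and 0.541, 0.400 and 0.685% in WT libraries at 6 h, still without overlap, and limma on the shares gave an adjusted p of 0.273.

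The segments with the next smallest p at 1 h were Ighv1-12 and Ighv1-75. Ighv1-12 had 15.6, 26.6 and 26.6 FPKM in KO libraries and 95.2, 80.2 and 52.7 FPKM in WT libraries at 1 h (log2 fold change -1.68, SE 0.402, limma adjusted p = 0.126). At 6 h it had 6.35, 18.5 and 12.004 FPKM in KO libraries and 58.0, 55.3 and 26.2 FPKM in WT libraries (log2 fold change -1.87, SE 0.402, limma adjusted p = 0.139). KO libraries lay below WT libraries at both times. Without both WT libraries numbered 3 limma gave adjusted p of 0.047 at 6 h and 0.0459 at 1 h. That exclusion was added after the data were seen and removes the WT replicate nearest to the KO level, so it is not independent support. Ighv1-75 had 124, 170.4 and 322 FPKM in KO libraries and 54.0, 73.5 and 36.1 FPKM in WT libraries at 1 h (log2 fold change 1.83, SE 0.450, limma adjusted p = 0.129). KO libraries lay above WT libraries, and neither segment passed the test.

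Shares of the summed Ighv level compare the makeup of the repertoire apart from its total. Fitted as shares, 3 segments were called at 6 h and 4 at 1 h. Only the segments were rescaled in this fit. In the fit on levels 0.228% of all tested genes were called at 6 h and 0.524% at 1 h. Ighv1-12 held smaller shares in KO cells at 6 h and 1 h, with 0.149, 0.457 and 0.177% of the summed level in KO libraries and 1.45, 1.23 and 1.02% in WT libraries at 6 h (limma on shares, log2 fold change -2.32, SE 0.347, adjusted p = 0.0263). At 1 h its values were 0.211, 0.370 and 0.236% in KO libraries and 1.41, 1.06 and 1.10% in WT libraries (log2 fold change -2.09, adjusted p = 0.025). Ighv1-80 also held smaller shares in KO cells at both times. It made up 0.850, 0.998 and 0.954% in KO libraries and 2.44, 5.53 and 4.47% in WT libraries at 6 h (log2 fold change -2.05, limma adjusted p = 0.0244). Ighv1-59 held larger shares in KO cells at both times, 0.675, 0.523 and 0.642% in KO libraries and 0.400, 0.383 and 0.396% in WT libraries at 6 h (log2 fold change 0.61, limma adjusted p = 0.0306). Ighv1-75 was called at 1 h only, with 1.67, 2.37 and 2.85% in KO libraries and 0.799, 0.969 and 0.754% in WT libraries (log2 fold change 1.41, limma adjusted p = 0.0359). Ighv1-80 and Ighv1-59 were named here once their values were known. These fits were an alternative to the test on levels, in which none of the 4 was called between genotypes.

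Counted by overlap, 13 segments had all KO libraries above all WT libraries at 6 h (8.1% of all tested genes) and 15 at 1 h (6.25%). The 3 KO libraries were below the 3 WT libraries in 5 segments at 6 h (6.97% of all tested genes) and 7 at 1 h (8.59%). At both times 10 segments lay above (1.36% of all tested genes) and 4 below (1.82%). The 10 were Ighv5-4, Ighv5-6, Ighv2-6-8, Ighv3-1, Ighv9-3, Ighv9-4, Ighv1-59, Ighv1-71, Ighv1-74 and Ighv1-75, and the 4 were Ighv7-3, Ighv1-12, Ighv1-61 and Ighv1-80. Because a replicate kept its profile between the times, the times do not add independent evidence. Ighv3-1 had 58.5, 90.3 and 15.96 FPKM in KO libraries and 10.2, 10.1 and 6.31 FPKM in WT libraries at 6 h. Here the third KO replicate was the one near the WT level, and without both of its libraries Ighv3-1 was called (limma, log2 fold change 2.93, adjusted p = 0.00248 at 6 h). Ighv3-1 was singled out after its values were seen, and this exclusion was also added after the data were seen. Ighv11-2 and Ighv12-3, left out of the 111, were higher in every KO library than in every WT library, Ighv11-2 at 77.8 to 129 FPKM in KO and 4.34 to 20.4 FPKM in WT libraries and Ighv12-3 at 21.7 to 50.9 FPKM in KO and 4.01 to 18.2 FPKM in WT libraries.

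**Figure D4:**
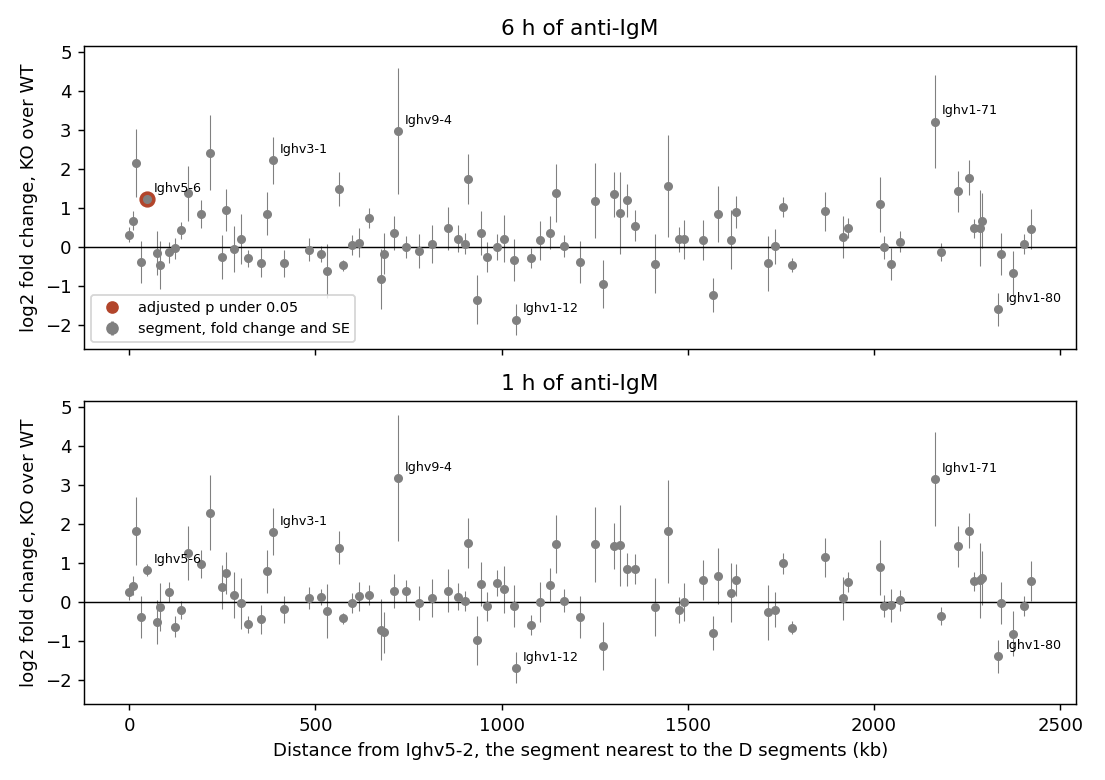
Log2 fold change, KO over WT, of the 92 tested Ighv segments at 6 h (top) and 1 h (bottom) by distance in kb from Ighv5-2, with bars for the SE. Higher and lower segments are found along the whole locus, the SE is wide for Ighv9-4 and Ighv1-71, and Ighv5-6 is the only called point.

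Between the times nearly all segments were lower at 6 h. The summed level was 5032 ± 1509 FPKM at 6 h and 8626 ± 2300 FPKM at 1 h in KO cells (SD, n = 3 each), and 3690 ± 1005 FPKM and 6376 ± 1443 FPKM in WT cells. Within replicates the log2 ratio, 6 h over 1 h, was -0.80, -0.82 and -0.74 in KO cells and -0.76, -0.75 and -0.90 in WT cells. With each library centred on the median of the tested genes, a shift of -0.146 to 0.139 on the log2 scale, the log2 ratio of the mean summed levels was -1.04 in KO cells and -1.02 in WT cells, against -0.78 and -0.79 as deposited. Of the 92 segments, 85 were lower at 6 h in all 6 replicates. The other 7 were higher in 1 to 3 replicates, the most being Ighv2-4, a segment with a mean of 1.95 FPKM that was higher in 3 of 6. Of all tested genes, 39.1% in KO cells and 39.8% in WT cells had a negative log2 fold change. How many of them were lower in all 6 replicates was not counted.

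The test of groups called 28 segments in KO cells and 25 in WT cells as lower at 6 h, and 0 as higher (limma, adjusted p under 0.05). Of all tested genes 27.9% in KO cells and 29.2% in WT cells were called lower, so these counts are near the background, and 50.6% in KO cells and 49.5% in WT cells were called higher. Replicate numbers pair the libraries of a genotype across the times, and with the number as a block 86 segments in KO cells and 84 in WT cells were called, all lower. The share of all tested genes called lower was then 30.4% in KO cells and 31.5% in WT cells. All 28 and all 25 were among the blocked calls, and 82 segments were called lower in both genotypes, beside 28.9% of all tested genes. The median SE of a segment was 0.117 with the block and 0.488 without it. The median log2 fold change of the segments was -0.80 in KO cells and -0.83 in WT cells, and that of all tested genes was 0.22 and 0.21.

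In KO cells the largest called falls were in Ighv1-5, Ighv1-69, Ighv1-52 and Ighv3-8. Ighv1-69 had 20.1, 25.1 and 37.3 FPKM at 6 h and 51.6, 79.8 and 91.1 FPKM at 1 h (log2 fold change -1.40, limma adjusted p = 0.0094; with the block SE 0.123, adjusted p = 2.18e-05). Ighv1-52 had 18.0, 19.7 and 26.4 FPKM at 6 h and 47.8, 50.5 and 71.3 FPKM at 1 h (log2 fold change -1.36, limma adjusted p = 0.0154; with the block SE 0.0825, adjusted p = 3.25e-06). Ighv3-8 had 17.6, 9.85 and 12.6 FPKM at 6 h and 44.4, 20.4 and 34.2 FPKM at 1 h (log2 fold change -1.21, limma adjusted p = 0.0024; with the block SE 0.183, adjusted p = 0.000484). For each of these 3 all libraries at 6 h lay below all at 1 h. Ighv1-5 had 11.3, 5.73 and 7.94 FPKM at 6 h and 35.5, 25.9 and 15.8 FPKM at 1 h, with an adjusted p close to the threshold (log2 fold change -1.49, limma adjusted p = 0.0462; with the block SE 0.221, adjusted p = 0.000428). Without the block, the call of Ighv1-5 was lost when KO library 1, 2 or 3 at 6 h or KO library 1 or 2 at 1 h was left out (limma adjusted p of 0.0509 to 0.138), and without the third WT library at 1 h (0.0548). The call of Ighv1-52 was lost without the third KO library at 1 h (limma adjusted p = 0.0559).

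In WT cells they were in Ighv1-61, Ighv7-4, Ighv2-6 and Ighv1-39. Ighv1-61 had 12.4, 13.7 and 11.9 FPKM at 6 h and 32.9, 34.3 and 31.8 FPKM at 1 h (log2 fold change -1.32, limma adjusted p = 2.79e-05; with the block SE 0.0524, adjusted p = 4.84e-07). Ighv7-4 had 1.33, 2.70 and 1.33 FPKM at 6 h and 4.45, 8.44 and 4.58 FPKM at 1 h (log2 fold change -1.28, limma adjusted p = 0.000678; with the block SE 0.0804, adjusted p = 3.74e-06). Ighv2-6 had 4.56, 6.88 and 3.69 FPKM at 6 h and 11.1, 13.9 and 10.7 FPKM at 1 h (log2 fold change -1.12, limma adjusted p = 0.000786; with the block SE 0.141, adjusted p = 0.000165). For each of these 3 all libraries at 6 h lay below all at 1 h. Ighv1-39 had 44.2, 29.0 and 25.7 FPKM at 6 h and 85.7, 66.0 and 60.3 FPKM at 1 h (log2 fold change -1.10, limma adjusted p = 0.0329; with the block SE 0.0738, adjusted p = 5.24e-06). Without the block, its call was lost when WT library 2 or 3 at 6 h or WT library 1 or 2 at 1 h was left out (limma adjusted p of 0.0593 to 0.0984).

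The constant regions were compared with the segments. Ighm fell at 6 h in KO cells (log2 fold change -0.69, limma adjusted p = 0.0427) and in WT cells (-0.71, limma adjusted p = 0.0392). Ighd, which is spliced from the same long transcript, had log2 fold changes of -0.12 in KO cells and -0.03 in WT cells that did not pass (limma adjusted p = 0.195 and 0.713). Jchain fell in KO cells (-0.80) and in WT cells (-0.75), with limma adjusted p of 0.0379 and 0.0486. As shares of the summed Ighv level, 1 segment was called between the times in each genotype, Ighv1-69 in KO cells and Ighv2-6 in WT cells, both lower at 6 h. The fit on shares did not use the replicate block. The few calls therefore do not show that the shares stayed the same within replicates. In the fit on levels 27.9% of all tested genes in KO cells and 29.2% in WT cells were called lower. The effective number of segments given above was lower at 6 h within each of the 6 replicate pairs, and so was the ratio of the summed Ighv level to that of Ighm, while the values at the 2 times overlapped between pairs in both genotypes. No test was made of either.

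**Figure D5:**
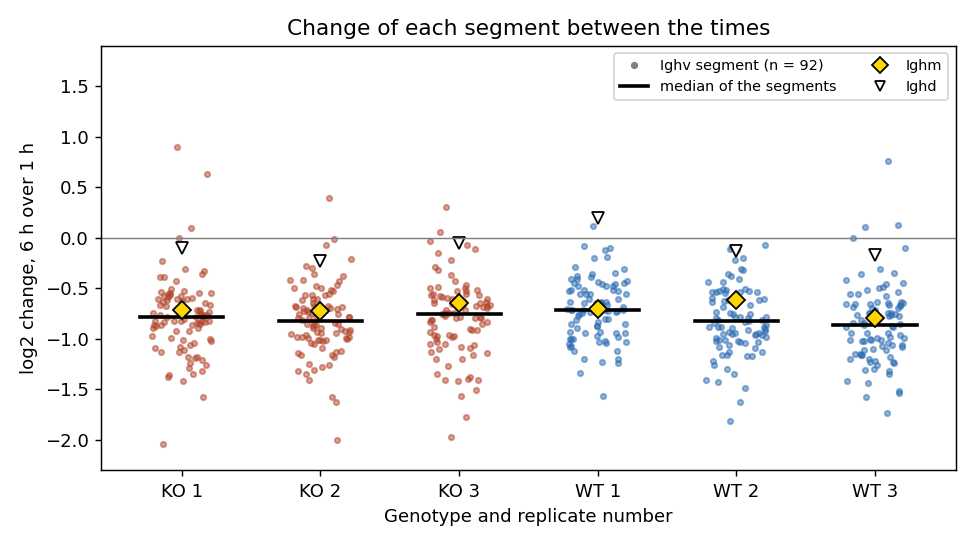
Log2 change, 6 h over 1 h, of each of the 92 tested Ighv segments within each replicate, with the median of the segments, Ighm and Ighd marked. The medians lie between -0.87 and -0.71 in all 6 replicates, near Ighm, and Ighd lies between -0.23 and 0.20.

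The change between the times was then compared between the genotypes. The difference was called for 0 of 92 segments, beside 0.0253% of all tested genes (limma interaction term, adjusted p under 0.05). An unadjusted p under 0.05 was reached by 0 segments and by 4.54% of all tested genes, and voom also called 0. With the replicate block 0 segments were called as well, beside 0.00845% of all tested genes. The median difference in log2 change, KO minus WT, was -0.0067 over the segments. The smallest p were those of Ighv2-6, Ighv5-6 and Ighv7-4, with differences of 0.63, 0.39 and 0.57 and SE of 0.318, 0.222 and 0.355, each with an adjusted p of 1. With the replicate block their SE were 0.199, 0.184 and 0.114, with adjusted p of 0.749, 0.846 and 0.449. A like fall in both genotypes is not shown by a difference that misses the threshold.

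Genes that drive transcription of the heavy chain locus or build the B cell receptor were examined beside the segments. Of a list of 32, 29 were tested. Between the genotypes 0 of 29 were called at 6 h or at 1 h (limma; 3 had an unadjusted p under 0.05 at each time). Between the times 7 rose and 20 fell in KO cells, beside 50.6% and 27.9% of all tested genes, and 8 rose and 20 fell in WT cells, beside 49.5% and 29.2%. Ets1, a transcription factor that binds the heavy chain enhancer, had 122, 129 and 134 FPKM at 6 h and 748, 749 and 713 FPKM at 1 h in KO cells (log2 fold change -2.51, SE 0.0697, limma adjusted p = 3.87e-10). In WT cells it had 128, 115 and 137 FPKM at 6 h and 712, 699 and 789 FPKM at 1 h (log2 fold change -2.52, SE 0.0697, limma adjusted p = 3.39e-10). Both genotypes had lower values at 6 h in every library. Cd79a, a signalling chain of the receptor, fell by 1.83 on the log2 scale in KO cells and by 1.95 in WT cells, and Ell2, an elongation factor that favours the secreted form of the heavy chain, fell by 2.05 and 1.96. Pax5, the factor that maintains B cell identity, fell by 1.70 in KO cells (limma adjusted p = 3.68e-09) and by 1.78 in WT cells (limma adjusted p = 2.67e-09). Nfkb1, an NF-kB subunit, rose by 1.28 in WT cells (limma adjusted p = 1.17e-09). In KO cells Nfkb1 was also higher, with 200, 208 and 203 FPKM at 6 h and 98.1, 96.1 and 97.6 FPKM at 1 h. Cd79b, the partner of Cd79a, was called higher at 6 h in both genotypes, and the recombinase genes Rag1 and Rag2 and Dntt did not reach the filter.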

How the data were processed

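Poly-A RNA of mouse spleen B cells was sequenced in 12 libraries with 150-base paired reads from a strand-marking kit, per the labels' protocols. The deposited table holds FPKM, computed by the authors, and all of its 12 columns were used. The submitters' processing notes name STAR, HTSeq and mm10, with no versions. How reads that match several segments were counted is not given in the sources used here. Symbols, types and positions come from GENCODE vM21.

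The test was run on log2(FPKM + 1) with limma 3.58.1 in R 4.3.3, with 4 group means, a variance trend and two-sided tests. The p-values were adjusted by Benjamini-Hochberg over all 11841 genes whose mean reached 1 FPKM, and calls were made under 0.05. Fold changes on this scale understate those of low genes. Multiplied by transcript length, 99.0% of the tested genes and 100% of the segments above 0 gave whole fragments (tolerance 0.001), and the library totals found this way are the depth. Floors cover counting error only. The fit was checked on simulated data.

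Replicate numbers were checked for pairing on deviations from the group means over all tested genes. Between 6 h and 1 h, same-numbered libraries of a genotype had correlations of 0.365 to 0.476 in KO and 0.338 to 0.547 in WT, so the numbers pair libraries across the times. Same-numbered KO and WT libraries gave -0.15 to 0.248 and were not taken as paired. The block was the number within genotype, as a fixed effect for the time comparisons and an estimated correlation (0.215) for the genotype comparisons.

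Segments named were the 10 with the highest mean, up to 4 called in each direction with the largest fold change in each comparison (or the 3 with the smallest p where none was called), the 6 with the largest SD between replicates, and the first and last of the locus. Others named were chosen after their values were seen. The members and lists were chosen with earlier results of these data known. Alternatives changed the pseudocount, filter, scaling, moderation, libraries fitted, block and replicates, or used shares of the summed Ighv level.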

Additional observations from a re-analysis of the deposited data

How the results depend on the processing

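Counts of called segments, given in the order KO against WT at 6 h, KO against WT at 1 h, 6 h against 1 h in KO, and 6 h against 1 h in WT, were 1, 0, 28 and 25. Of all tested genes 0.228% and 0.524% were called between the genotypes, and 27.9% and 29.2% were called lower between the times. Apart from the replicate block within genotype, such shares are not given here for the alternatives. A changed count can therefore not be set against the table as a whole. With no filter on low values the count in KO between the times was 17. With libraries centred on the median of tested genes it was 1 for KO against WT at 1 h and 38 between the times in WT. The replicate block within genotype gave 86 in KO and 84 in WT between the times and changed no other count. A replicate block shared by KO and WT, which the data do not pair, gave 4 for KO against WT at 6 h. Shares of the summed Ighv level, fitted without a replicate block, gave 3, 4, 1 and 1. The fit by voom on recovered fragments, added after the data were seen, gave 1 for KO against WT at 1 h. Leaving out both KO libraries numbered 3 gave 2 at 6 h and 1 at 1 h, and so did leaving out both WT libraries numbered 3. These exclusions were likewise added after the data were seen. Leaving out each library in turn gave 0 to 1, 0 to 1, 20 to 32 and 22 to 36. The difference between genotypes in the time change stayed at 0 calls under all these alternatives. The log2 ratio of the summed level kept its direction under all its alternatives, and without single libraries it ranged over 0.17 to 0.62 at 6 h and 0.20 to 0.58 at 1 h for KO over WT, and over -1.05 to -0.54 in KO and -0.96 to -0.58 in WT for 6 h over 1 h. Of 385 values of named segments under alternatives, 348 kept their side of the threshold, 31 lost a call, 6 gained one and 0 changed direction. The cause was not tested. The median SE of a genotype difference of a single segment was 0.488, with 3 libraries per group.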

Other observations

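Marker lists of other spleen cells were read in the same libraries. Of 10 marginal zone B cell markers, 4 were lower in KO cells at 1 h (limma, adjusted p under 0.05), beside 0.439% of all tested genes. They were Cd36, Pik3r4, Myof and S1pr3, and 0 were called at 6 h. An unadjusted p under 0.05 was reached by 9 of the 10 at 1 h and by 2 at 6 h. Of all tested genes 11.3% at 1 h and 7.55% at 6 h reached it. The list summed to 228, 222 and 227 FPKM in KO libraries and 236, 229.7 and 229.6 FPKM in WT libraries at 6 h, and to 309, 337 and 306 FPKM in KO libraries and 419.6, 396 and 409.7 FPKM in WT libraries at 1 h. Of 9 B-1 cell markers, 0 were called at either time, where 2 had an unadjusted p under 0.05 each time. Of 6 macrophage markers, 3 were called lower in KO cells at 1 h (Mertk, C1qa and C1qc) and 0 at 6 h. All 6 had an unadjusted p under 0.05 at 1 h, and 5 had one at 6 h. Their part in the V segment differences was not tested.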
